A study of Mus musculus with 12 samples.

Results

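The course of quadriceps without Net39 from postnatal day 9 (P9) to day 17 (P17) is described here from 6 of the 12 RNA-seq libraries of the series. Its members are the 3 KO columns of the P9 table and the 3 KO columns of the P17 table, taken by genotype and age and by no measured value. Replicate numbers here follow column order within each group. They need not match the numbers in the sample labels, because the columns carry mouse names that no label gives. The study deleted Net39, a nuclear envelope protein of skeletal muscle that the tables list as Plpp7 at P9 and Ppapdc3 at P17. It sequenced polyA RNA of whole quadriceps from KO and WT mice with 3 animals per genotype at each age. The P9 KO and P17 KO groups are C57BL/6 mice lacking Net39 at 9 and 17 days of age, and the P9 WT and P17 WT groups are C57BL/6 mice of the same ages with the gene intact, all untreated. Every KO animal descends from 1 selected CRISPR line that lacks exon 1, made in B6C3F1 mice and crossed to C57BL6N, so a feature of that line and an effect of the gene cannot be told apart. The P17 KO libraries held 31447011, 30383049 and 26506783 reads on genes and the P17 WT libraries 34905954, 29970648 and 31777794. No reads can be recovered from the P9 values.

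Between the first and the third postnatal week a mouse limb muscle replaces embryonic and neonatal contractile proteins with adult fast and slow isoforms, stops dividing most of its precursor cells and lays down less new matrix. Fibres are classed by their myosin heavy chain: slow fibres carry Myh7, and fast fibres carry Myh2, Myh1 or Myh4 in order of increasing speed. Net39 lies in the inner nuclear membrane beside the lamins and the LINC complex, which ties the nucleus to the cytoskeleton.

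Net39 itself was measured first. The WT libraries held 37.0, 28.4 and 32.8 FPKM at P9 and 97.7, 87.5 and 155.0 CPM at P17. The KO libraries held 0.432, 0.488 and 0.537 FPKM at P9 and 1.53, 0.428 and 0.717 CPM at P17, the last equal to 48, 13 and 19 reads. All 6 KO values lay far below all WT values of the same age, and each library had the level its label gives. The deletion covers exon 1 alone, so reads from the rest of the gene can still be counted. Of 8 skeletal muscle markers, all were above 0 in every library, and their summed level was 39262, 36538 and 36972 FPKM in P9 KO and 94277, 86456 and 77260 CPM in P17 KO, with the skeletal actin Acta1 the most abundant. In WT it was 56182, 55751 and 58440 FPKM and 136891, 136882 and 121893 CPM. Acta1 was at position 1 of the ranking in each of the 12 libraries. In the KO course 7 of the 8 markers stayed, against 81.4% of all genes (median 0.03). As deposited the median was 0.11 and 3 rose, against 6.58% of all genes. The remaining marker, Mb or myoglobin, had KO percentiles of 91.2, 96.1 and 96.2 at P9 and 98.8, 99.7 and 99.7 at P17 and rose by 0.97, beside 0.74 in WT.

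Levels were compared as ranks, because the P9 values are FPKM and the P17 values are CPM. Each library was ranked over the 20419 genes that both tables list under the same symbol and whose length is known, after the P17 values were divided by gene length. A percentile of 100 is the highest level, position 1 is the top of the ranking, and a score change is the P17 mean minus the P9 mean of the normal score of the rank, on which a score of 2 lies at percentile 97.7. A gene rose or fell when its adjusted p was under 0.05 and its score change beyond 0.5, and it stayed when the 95% confidence interval of the change lay within 0.5 of 0. In KO quadriceps 12244 genes were tested, of which 507 rose (4.14%), 654 fell (5.34%) and 9969 stayed (81.4%), leaving 1114 that did none of these. As deposited 808 of 12271 rose (6.58%) and 915 fell (7.46%). Counts as deposited in the lists below stand against these shares. Per length 86 of the genes that rose and 107 of those that fell had a mean percentile under 40 at the other age and passed the filter through 1 age only, which favours a call. In WT quadriceps 363 of 12230 genes rose (2.97%) and 546 fell (4.46%). Of the 507 genes that rose in KO, 214 also rose in WT, out of the 363 there, and 423 of the 654 that fell in KO were among the 546 that fell in WT. The test of the difference itself, KO change minus WT change, gave 80 of 12248 genes whose change was higher in KO (0.653%) and 66 whose change was lower (0.539%). As deposited these were 90 and 95, so which direction held more genes depends on the scale.

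Age, unit and gene models differ between the P9 and the P17 table, so in the KO course they cannot be told apart. Whether the sequencing run differs as well is given in no label. The same pair of tables gives the WT course, which is set beside the KO values, and the difference between the courses uses all 12 libraries. On ranks, what acts on both genotypes of an age need not cancel fully in that difference: 3 of 46 differences of named genes lost their call when the values were ranked as deposited. Gene length was related to the change: across genes, which are not independent replicates, the KO change had a Pearson r of -0.24 with log2 length over 12244 genes, against 0.47 over 12271 genes when the values were ranked as deposited. The relation in WT was -0.19 per length and 0.52 as deposited, and that of the difference -0.13 and -0.08. Whether these relations come from the tables or from age was not tested.

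**Figure D1:**
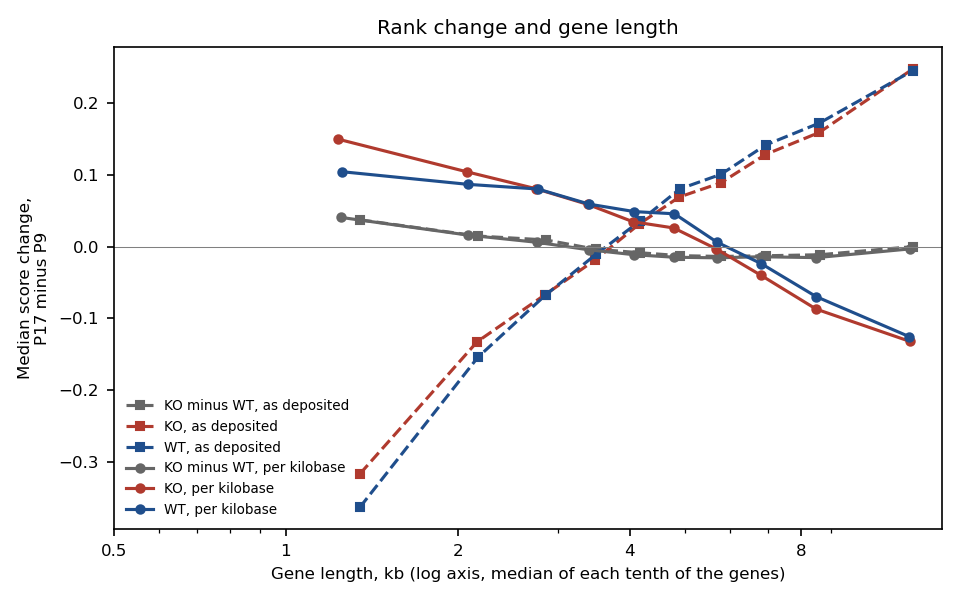
Median score change from P9 to P17 (vertical axis) over the genes tested, in 10 equal groups of genes by length in kb (log axis), in KO, in WT and for KO minus WT, with P17 values per kilobase (circles, solid lines) and as deposited (squares, dashed lines). The KO median went from 0.15 at 1.24 kb to -0.13 at 12.4 kb per kilobase and from -0.32 at 1.35 kb to 0.25 at 12.5 kb as deposited, while KO minus WT stayed between -0.02 and 0.04 on both scales.

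Of the 10 genes of highest mean rank in KO, 8 were shared by P9 and P17: Acta1, the regulatory light chain Mylpf, the fast troponins Tnnt3, Tnnc2 and Tnni2, the tropomyosin Tpm2, the calcium pump Atp2a1 and the imprinted noncoding RNA H19. Myl1, a fast essential light chain, and Tpm1 were among the 10 at P9 only, and Cryab and the creatine kinase gene Ckm at P17 only. H19 stood at positions 7, 7 and 6 at P9 and 2, 2 and 2 at P17 and stayed by the test at 0.31 (SE 0.02), while its WT positions were 17, 15 and 13 at P9 and 15, 16 and 18 at P17. Cryab encodes a small heat shock protein that binds desmin and actin filaments. Its KO positions were 99, 91 and 118 at P9 and 9, 9 and 10 at P17. All 3 P17 libraries were above all 3 P9 libraries, the gene rose by 0.74 (SE 0.03) with a limma adjusted p of 2.37e-06, and the WT change was 0.31. Myl1 had positions of 3, 3 and 5 at P9 and 13, 16 and 17 at P17, a score change of -0.40 that stayed per length and fell to -0.53 as deposited.

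Among the 6 myosin heavy chains, the KO course raised Myh2, lowered Myh8 and Myh4 and held Myh1 and Myh3. Myh2, the chain of the slowest fast fibres (type IIa), had KO positions of 116, 86 and 67 at P9 and 18, 12 and 9 at P17, and WT positions of 228, 199 and 115 at P9 and 257, 238 and 170 at P17. No P17 KO value overlapped a P9 KO value, and the gene rose by 0.60 (SE 0.06) in KO (limma adjusted p 1.92e-04) against -0.08 in WT, a difference of 0.69 with an adjusted p of 0.00327. Myh4 encodes the fastest chain (type IIb). Its KO positions were 38, 239 and 60 at P9 and 492, 511 and 467 at P17, and its WT positions were 10, 11 and 11 at P9 and 8, 8 and 8 at P17. P9 KO replicate 2 was lower than the other P9 KO libraries yet above all 3 of P17. Myh4 fell by 0.66 (SE 0.15, adjusted p 0.00603), a change of -0.36 that did not pass as deposited, and differed from WT by -0.74 (adjusted p 0.0212), a call that was lost without P9 KO replicate 3 (-0.69).

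Myh8, the neonatal chain, had KO positions of 16, 22 and 27 at P9 and 434, 752 and 572 at P17. WT positions were 116, 133 and 81 at P9 and 5132, 6310 and 5109 at P17, so every P17 WT library lay below every P17 KO library. It fell in both courses, by 1.17 (SE 0.06) in KO and by 1.94 (SE 0.06) in WT, and the KO change was higher by 0.77 (limma adjusted p 0.00174). As deposited the KO change of Myh8 was -0.57. Myh3, the embryonic chain, had KO percentiles of 92.8, 97.0 and 96.4 at P9 and 98.2, 96.6 and 96.6 at P17, where the ages overlapped. Its change of 0.20 counted as stayed per length, and it rose to 0.51 as deposited. Myh1, of type IIx fibres, held KO positions of 56, 72 and 48 at P9 and 38, 69 and 35 at P17 and stayed at 0.08. Myh7, the slow chain, had KO percentiles of 88.4, 96.7 and 97.5 at P9 and 98.9, 98.4 and 97.7 at P17, with P9 KO replicate 1 well below the rest. Its change of 0.47 had an adjusted p of 0.0638, and as deposited it rose to 0.96. Over the 6 genes the median KO change was 0.14 per length and 0.44 as deposited, against 0.02 over all genes tested on either scale. As deposited 3 rose and 1 fell, against 6.58% and 7.46% of all genes.

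**Figure D2:**
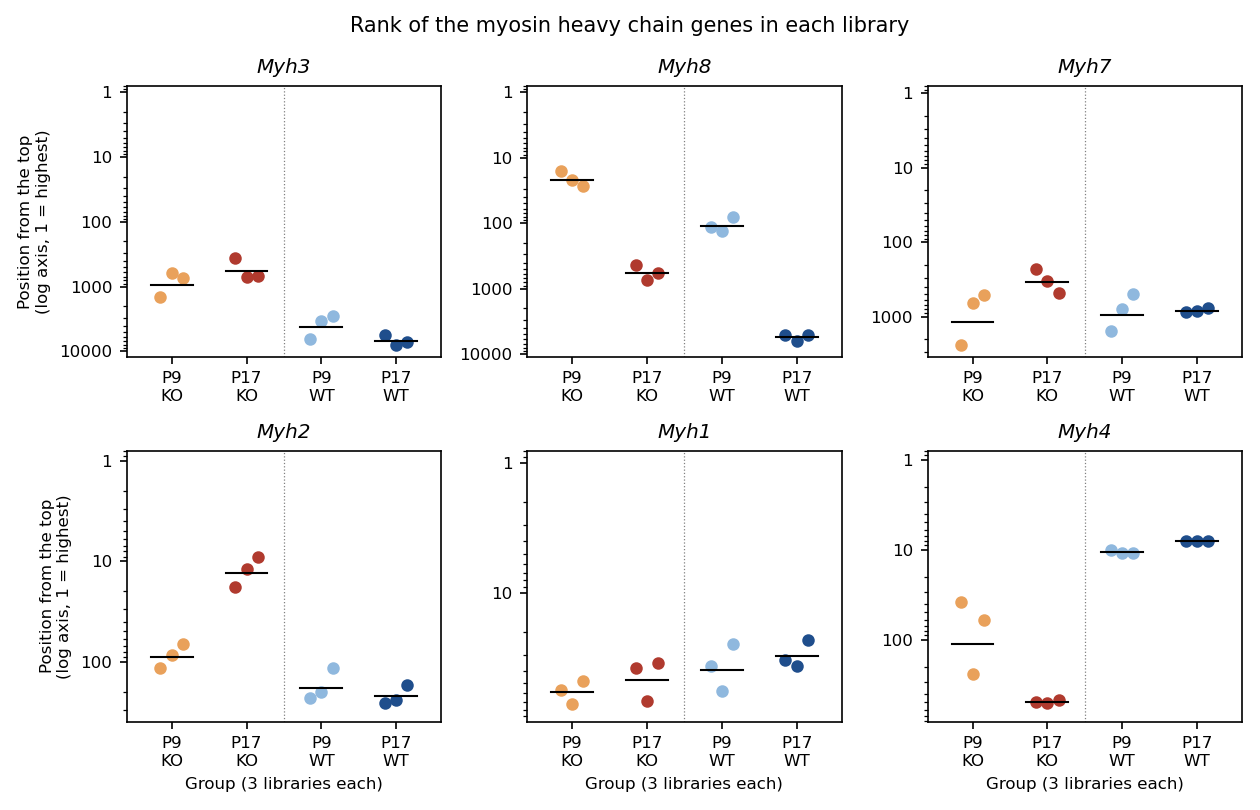
Position of each myosin heavy chain gene from the top of its library (vertical log axis, 1 is the highest level, with its own range in each panel) in the 3 libraries of each group, with bars at the group mean. Myh2 stands at 18, 12 and 9 in P17 KO and at 257, 238 and 170 in P17 WT, while Myh4 stands at 492, 511 and 467 in P17 KO and at 8 in all 3 P17 WT libraries.

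Of 8 genes of developing muscle, contractile proteins with a synapse and an adhesion gene, 6 fell in KO, against 5.34% of all genes, none rose and 1 stayed. As deposited 5 fell and 1 rose, against 7.46% and 6.58% of all genes. The median change was -0.64 per length, -0.57 as deposited and -0.48 in WT. Myl4, the embryonic essential light chain, had KO percentiles of 97.5, 97.5 and 97.3 at P9 and 81.3, 79.5 and 77.0 at P17 and fell by 1.13, beside -1.16 in WT. Tnnt2, the cardiac troponin T that immature skeletal fibres also make, had percentiles of 90.3, 90.1 and 89.1 at P9 and 54.4, 52.9 and 49.3 at P17 and fell by 1.22. Both genes had every P17 KO value below every P9 KO value. Chrng, the acetylcholine receptor subunit of immature synapses, fell by 0.59, and the adhesion gene Ncam1 fell by 0.69, though not as deposited (-0.42). Actc1, the actin of heart and developing muscle, fell in KO and not in WT: its KO positions were 134, 247 and 218 at P9 and 785, 729 and 903 at P17 and its WT positions 18, 25 and 17 at P9 and 9, 10 and 9 at P17. The KO change of -0.59 (SE 0.06) differed from the WT change of 0.22 by -0.80 (limma adjusted p 2.97e-04). Myl6b, a slow light chain of early fibres, ranged from percentile 77.8 to 94.2 in P9 KO and did not pass at 0.40.

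Slow fibre genes had higher P17 than P9 means in most cases but few passed the test. Of 11 tested 1 rose, against 4.14% of all genes, none fell and 4 stayed. As deposited 3 rose, against 6.58% of all genes. The median change was 0.30 (0.27 as deposited, -0.09 in WT), or 0.15 without P9 KO replicate 1. The gene that rose, Tnnt1 or slow troponin T, had KO positions of 637, 224 and 231 at P9 and 59, 38 and 48 at P17, a change of 0.68 (SE 0.11, adjusted p 0.00157), and a WT change of -0.09. Its difference between genotypes was 0.77 (limma adjusted p 0.0287), a call lost in 7 of 12 fits that left out 1 library, with values of 0.69 to 0.78 there. The call was also lost with mouse name letters as a block. Myoz2, a slow Z-disc protein, stayed in KO at 0.28 and had a WT change of -0.40, and the difference of 0.68 was called (adjusted p 0.00204). P9 KO replicate 1 stood apart in this list. The slow light chain Myl2 had KO percentiles of 96.2, 99.7 and 99.7 at P9 and 99.7, 99.8 and 99.7 at P17, Myl3 of 94.8, 99.0 and 98.9 at P9 and 99.3, 99.3 and 98.7 at P17, the slow troponin I gene Tnni1 of 91.9, 98.2 and 97.2 at P9 and 98.5, 98.0 and 96.4 at P17 and troponin C gene Tnnc1 of 92.0, 98.5 and 98.4 at P9 and 99.5, 99.3 and 98.6 at P17. In each of these 4 genes the first P9 library was the lowest of the 6, and none of the 4 passed the test (changes of 0.33, 0.30, 0.20 and 0.49). Without that library their changes were 0.00, 0.07, -0.00 and 0.24. The slow tropomyosin gene Tpm3 stayed at -0.17 (0.14 as deposited). Atp2a2, the slow calcium pump, had a change of 0.47 per length and rose to 0.77 as deposited.

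Fast fibre genes divided. Of 14 tested 1 rose, 4 fell and 9 stayed, against 4.14% of all genes that rose and 5.34% that fell, with a median of -0.09 (-0.28 as deposited, 0.07 in WT). Mybpc2, the fast myosin-binding protein C, had KO percentiles of 97.4, 93.4 and 95 at P9 and 77.5, 65.5 and 63.7 at P17 and WT positions of 35, 69 and 30 at P9 and 20, 21 and 20 at P17. No KO values overlapped between ages, the change was -1.20 (SE 0.14) with an adjusted p of 3.36e-04, and the difference from WT of -1.42 was the lowest among the genes named by rule. Actn3, the Z-disc actinin of fast fibres, had KO percentiles of 98.5, 92.3 and 96.0 at P9 and 91.9, 75.4 and 75.4 at P17. It fell by 0.86 (SE 0.24), a call lost without P17 KO replicate 2 (-0.74) or P17 KO replicate 3 (-0.74), and its difference of -0.97 had an adjusted p of 0.0578. Pvalb, the calcium buffer parvalbumin, had KO percentiles of 99.0, 94.2 and 97.6 at P9 and 94.5, 83.9 and 78.3 at P17, where P17 KO replicate 1 overlapped P9 KO replicate 2. Pvalb fell by 0.84 (SE 0.25, adjusted p 0.0211), a call lost without P17 KO replicate 2 (-0.77), P17 KO replicate 3 (-0.67), P9 KO replicate 1 (-0.65) or P9 KO replicate 3 (-0.83), while its WT positions were 5, 6 and 7 at P9 and 3, 3 and 3 at P17. Mylk2, the kinase of the regulatory light chain, went the other way with KO percentiles of 92.6, 90.8 and 92.0 at P9 and 99.0, 98.4 and 98.7 at P17 and rose by 0.84 (SE 0.06), beside 0.58 in WT.

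Genes of excitation-contraction coupling, which link the action potential to calcium release, stayed in 13 of 15 cases, against 81.4% of all genes, with none that rose or fell. As deposited 2 rose and 1 fell, against 6.58% and 7.46% of all genes. The median change was -0.04 per length, turning to 0.22 as deposited and to 0.03 with the longest transcript as the length, and 0.14 in WT. The calcium store protein gene Casq1 stayed at -0.09. The release channel gene Ryr1 stayed at 0.05, although it rose to 0.88 as deposited, where no length is divided out. The juvenile release channel gene Ryr3 had percentiles of 64.9, 62.9 and 52.2 at P9 and 46.4, 42.9 and 42.9 at P17 and did not pass at -0.41. Sln, the sarcolipin peptide that slows the calcium pump, had KO positions of 41, 34 and 66 at P9 and 39, 117 and 98 at P17 and WT positions of 1463, 428 and 706 at P9 and 5698, 4654 and 7014 at P17. In KO the ages overlapped and the gene stayed at -0.17 (SE 0.10), while in WT it fell by 1.19 (SE 0.15). The difference of 1.02 had a limma adjusted p of 0.0123. Pln, the related phospholamban gene, had KO percentiles of 47.3, 52.2 and 50.6 at P9 and 68.3, 69.0 and 68.5 at P17 and a change of 0.48 that did not pass, though it rose among protein-coding genes only (0.51).

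Of 11 glycolysis genes 10 stayed in KO quadriceps, against 81.4% of all genes, with a median of -0.08 (-0.00 as deposited, where 1 rose and 1 fell, 0.03 in WT). The enolase gene Eno1, whose level is uncertain because of near copies, is not on the list and fell (-3.18). Eno1 passed the filter through P9 alone, which favours a call. Hk2, the hexokinase of insulin-responsive tissue, rose by 0.54 beside 0.59 in WT, a KO call lost without P17 KO replicate 3 (0.50) and with the longest transcript as length (0.44). The isomerase gene Gpi1 stayed at -0.30 (0.07 as deposited), the lactate dehydrogenase gene Ldha at -0.31 and Pgk1 at -0.39, the latter falling to -0.63 as deposited. Of 13 glycogen genes 4 rose, 1 fell and 8 stayed (median 0.17, 0.26 in WT), against 4.14% of all genes that rose and 5.34% that fell. As deposited 6 rose and none fell (median 0.34), against 6.58% and 7.46% of all genes. Glycogen synthase (Gys1) rose by 0.58, the primer protein glycogenin (Gyg) by 0.68, the phosphatase targeting subunit Ppp1r3c by 0.72 and the phosphorylase kinase subunit Phka1 by 0.84. Gyg had KO positions of 842, 829 and 787 at P9 and 152, 158 and 154 at P17, so each P17 library was above each P9 library. Glycogen phosphorylase (Pygm) stayed at -0.02. Phkg1, the catalytic subunit of phosphorylase kinase, ran against these 4: its KO percentiles were 95.2, 93.4 and 94.9 at P9 and 78.8, 85.3 and 85.6 at P17 and its WT means 98.3 and 98.4. Phkg1 fell by 0.63 (SE 0.08) per length and did not pass as deposited (-0.40) or with the longest transcript as length (-0.26), and it differed from WT by -0.65 (adjusted p 0.00220).

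Of 20 fatty acid genes 1 rose, 1 fell and 15 stayed, shares like the 4.14% of all genes that rose and 5.34% that fell, with a median of 0.16 (0.10 as deposited, where 1 rose and 2 fell, 0.02 in WT). Pdk4, the kinase that shuts pyruvate out of the mitochondrion, had KO positions of 332, 210 and 201 at P9 and 82, 51 and 40 at P17 and rose by 0.52 (SE 0.07), a call lost without P17 KO replicate 3 (0.47) or P9 KO replicate 1 (0.46) and with the longest transcript as length (0.42). Cd36, a fatty acid carrier, stayed at 0.26, and the uncoupling protein gene Ucp3 did not pass at 0.48. Cpt1b, the muscle enzyme that loads fatty acids for mitochondrial entry, had KO percentiles of 97.4, 98.2 and 98.5 at P9 and 49.1, 47.6 and 51.6 at P17 and fell by 2.08, beside -1.78 in WT. Oxidative phosphorylation stayed in all 21 genes tested, against 81.4% of all genes. The median of 0.06 per length turned to -0.03 as deposited, where 1 fell, and stood at 0.14 in WT. The ATP synthase gene Atp5l, whose level is uncertain because of near copies, is not on the list and fell (-2.75). Its members lay near the top of the ranking at both ages: the muscle cytochrome oxidase subunit Cox6a2 was at positions 33, 40 and 31 at P9 and 11, 13 and 13 at P17 (score change 0.31, -0.18 as deposited), and the ATP synthase subunit Atp5o at 32, 31 and 36 at P9 and 78, 79 and 86 at P17. No gene encoded by the mitochondrial genome was among the joined genes.

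Of all 29 cell cycle genes, fitted without a filter, 10 fell in KO quadriceps, against 4.63% of all genes, 9 stayed and none rose, with a median of -0.40 per length and -0.23 in WT, where 3 of 29 fell. The filter left 25, of which 7 passed through P9 alone. The promoters of Cdk1, Top2a and Ube2c are shown because these genes stand for entry into mitosis, chromosome untangling and exit from mitosis, and all 3 fell. They are RefSeq promoters of build GRCm38.p6, 250 bases before to 50 after the start of the gene, read 5′ to 3′ on the gene's strand: Cdk1 at chr10:69352863-69353162 (-), Top2a at chr11:99024140-99024439 (-) and Ube2c at chr2:164769679-164769978 (+). Capitals mark TTTGAA, the cell cycle homology region motif (CHR), and CCAAT, the box bound by NF-Y, on either strand (TTCAAA and ATTGG on the other), and neighbouring matches may overlap.
Cdk1: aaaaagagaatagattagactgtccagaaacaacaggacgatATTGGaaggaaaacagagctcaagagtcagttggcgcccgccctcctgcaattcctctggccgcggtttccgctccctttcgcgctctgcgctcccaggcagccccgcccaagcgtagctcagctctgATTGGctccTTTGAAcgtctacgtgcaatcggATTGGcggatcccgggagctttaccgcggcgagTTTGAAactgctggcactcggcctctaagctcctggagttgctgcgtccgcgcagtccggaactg
Top2a: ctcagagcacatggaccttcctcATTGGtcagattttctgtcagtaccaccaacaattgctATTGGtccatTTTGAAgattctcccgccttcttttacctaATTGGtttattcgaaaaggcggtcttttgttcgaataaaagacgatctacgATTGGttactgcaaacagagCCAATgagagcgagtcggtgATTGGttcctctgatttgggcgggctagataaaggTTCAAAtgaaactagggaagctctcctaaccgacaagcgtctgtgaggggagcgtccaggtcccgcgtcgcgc
Ube2c: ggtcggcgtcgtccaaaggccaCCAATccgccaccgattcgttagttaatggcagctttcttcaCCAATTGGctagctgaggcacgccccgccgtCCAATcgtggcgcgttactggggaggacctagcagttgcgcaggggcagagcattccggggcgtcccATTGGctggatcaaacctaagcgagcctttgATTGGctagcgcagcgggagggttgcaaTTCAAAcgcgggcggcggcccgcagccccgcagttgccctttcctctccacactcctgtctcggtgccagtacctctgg

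In those sequences Cdk1 has 2 CHR and 3 CCAAT matches, Top2a 2 and 6, and Ube2c 1 and 6. Of the 29 cell cycle genes 25 are in the promoter table, 14 of them with a CHR match and 23 with a CCAAT match, while among all 32851 promoters 17.9% hold a CHR match and 37.4% a CCAAT match. A match describes the sequence and does not show binding. Cdk1, the kinase that starts mitosis, had KO percentiles of 68.9, 70.5 and 71.9 at P9 and 41.9, 42.4 and 39.4 at P17, so all 3 P17 values lay below all 3 P9 values. It fell by 0.76 (SE 0.04) with a limma adjusted p of 1.05e-05. The WT means were 71.6 and 53.9, and the difference of -0.28 was not called. Top2a, the topoisomerase of dividing cells, had percentiles of 77.9, 68.5 and 80.5 at P9 and 34.2, 36.5 and 36.9 at P17 and fell by 1.07. Ube2c, which tags cyclins for destruction, had percentiles of 87.9, 85.5 and 86.5 at P9 and 40, 42.3 and 43.1 at P17 and fell by 1.32, beside -1.10 in WT. The P17 KO libraries were tight in both genes and far from P9. Ccna2 (-0.80), Aurkb (-0.75), Ccnb1 (-0.63), Birc5 (-0.63), Kif22 (-0.59), Mcm5 (-0.56) and Mki67 (-0.61, -0.45 and not called as deposited) also fell. Of the genes that fell, Top2a, Aurkb, Ccnb1, Kif22 and Mki67 passed the filter through P9 alone. In bulk tissue fewer dividing cells and less of these RNAs per cell cannot be told apart. None of 28 cell cycle genes differed between the courses by the test, against 0.653% of all genes higher in KO and 0.539% lower. The median difference of the 28 was -0.20.

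Matrix genes fell on the per length scale, 9 of 16 against 5.34% of all genes, with 2 that stayed and none that rose (median -0.54, -0.30 in WT). As deposited only 2 of 16 fell, against 7.46% of all genes (median -0.19). Postn, the periostin that cells secrete into growing matrix, had KO percentiles of 99.0, 98.7 and 98.8 at P9 and 83.2, 82.5 and 83.2 at P17. It fell by 1.33 (SE 0.04) per length and to -0.92 as deposited, with a WT change of -1.0. The fibrillar collagen genes Col1a2 and Col3a1 had KO positions of 58, 114 and 45 at P9 and 729, 685 and 508 at P17, and of 40, 78 and 64 at P9 and 594, 403 and 302 at P17. They fell by 0.85 and 0.72, and Col1a1 by 0.57, but as deposited all 3 stayed, at -0.21, -0.18 and -0.20. Col6a2 (-0.74, -0.33 as deposited), Fbn1 (-0.55, -0.02), Bgn (-0.66, -0.43) and Col5a2 (-0.52, -0.05) fell per length only, the last call being lost without P17 KO replicate 1 (-0.46). With the longest transcript as length Bgn (-0.40) and Col5a2 (-0.49) did not pass, and Lum fell (-0.52). Fibronectin (Fn1) fell by 0.89 and stayed as deposited (-0.33). The matrix genes Sparc and Dcn did not pass at -0.46 and -0.45. Lum, a small matrix proteoglycan, did not pass at -0.36 and fell as deposited (-0.66). The 6 fibroblast markers overlap this list in 5 genes. Of the 6, 3 fell, against 5.34% of all genes, and 1 stayed (median -0.51). As deposited 1 fell, against 7.46% of all genes (median -0.19). Their sum was 2615, 1961 and 2673 FPKM in P9 KO and 2407, 3017 and 3730 CPM in P17 KO, with Col3a1 or a type I collagen the most abundant and none at 0. In WT it was 2074, 2125 and 2320 FPKM and 5965, 5582 and 5219 CPM. Of 6 tendon markers Tnmd, a tendon membrane protein, fell by 0.70 and 4 stayed, against 81.4% of all genes (median -0.07, -0.13 as deposited). As deposited 2 tendon markers fell, against 7.46% of all genes. The Tnmd difference of -0.60 (limma adjusted p 0.0397) was lost in 10 of 12 fits without 1 library (-0.64 to -0.51). It was also lost with mouse name letters as a block. The tendon sums were 182, 115 and 251 FPKM at P9 and 323, 193 and 267 CPM at P17 in KO, led by Fmod. In WT they were 151, 190 and 175 FPKM and 445, 379 and 342 CPM. The part of fibroblasts or tendon in the matrix values was not tested.

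Imprinted and growth genes fell in 7 of 12 cases, against 5.34% of all genes, with 4 that stayed and none that rose. As deposited 6 fell, against 7.46% of all genes. The median was -0.62 (-0.47 as deposited, -0.26 in WT). Dlk1, a membrane inhibitor of differentiation, had KO percentiles of 99.7, 99.6 and 99.5 at P9 and 90.0, 86.9 and 86.2 at P17 and fell by 1.51 (SE 0.07), beside -1.03 in WT. Meg3, the noncoding RNA of the same imprinted locus, had KO positions of 15, 18 and 15 at P9 and 528, 1543 and 1091 at P17 and fell by 1.5, beside -1.49 in WT. As deposited the KO change of Meg3 was -0.70. For both genes every P17 KO library lay below every P9 KO library. The imprinted zinc finger genes Plagl1 and Peg3 fell by 0.81 and 1.02, Peg3 not as deposited (-0.42). Mest, an imprinted gene of fetal growth, had KO percentiles of 97.1, 96.8 and 97.1 at P9 and 75.9, 74.2 and 75.3 at P17 and WT percentiles of 97.0, 96.8 and 96.9 at P9 and 91.7, 88.6 and 89.3 at P17. It fell in both, by 1.20 (SE 0.03) and 0.59 (SE 0.05), and the difference was -0.61 (limma adjusted p 4.88e-04). Cdkn1c, the imprinted cell cycle inhibitor p57, had KO positions of 216, 275 and 237 at P9 and 1239, 1378 and 1313 at P17 and WT positions of 259, 276 and 221 at P9 and 214, 300 and 277 at P17. It fell by 0.74 in KO and stayed in WT (-0.02), a difference of -0.73 (adjusted p 7.69e-05). Mstn, the growth inhibitor myostatin, had KO percentiles of 73.5, 52.3 and 53.3 at P9 and 39.8, 41.1 and 39.7 at P17 and WT means of 92.1 and 92.5. It fell by 0.50 (SE 0.14), a call lost without P17 KO replicate 1 (-0.50), P17 KO replicate 3 (-0.50) or P9 KO replicate 1 (-0.32). The growth factor gene Igf1 stayed at -0.34 (0.10 as deposited), Igf2 had a change of 0.20 that did not pass, and Igfbp5, a binding protein of the same growth factors, stayed in KO at -0.33 and differed from WT by -0.69 (adjusted p 0.00254).

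Myogenic regulators stayed in 9 of 11 cases, a share like the 81.4% of all genes, with a median of 0.01 per length that turned to -0.14 as deposited, -0.13 with the longest transcript as the length and -0.02 in WT. The stem cell factor Pax7 stayed at -0.14 and the differentiation factor Myog at -0.05, and Myod1 did not pass at 0.29 (-0.11 as deposited). Tmem8c, which encodes the fusion protein Myomaker, was the gene that fell: its KO percentiles were 86.5, 84.2 and 83.9 at P9 and 52.6, 54.1 and 50.7 at P17 and its WT percentiles 89.9, 89.4 and 90.1 at P9 and 90.8, 86.3 and 87.4 at P17. Tmem8c fell by 0.97 (SE 0.04) in KO and stayed in WT, and the difference of -0.89 had an adjusted p of 2.89e-04, while as deposited it was -0.49 and not called. Of 15 synapse and denervation genes 11 stayed, 1 rose and 2 fell, against 81.4%, 4.14% and 5.34% of all genes (median -0.05, -0.26 as deposited, -0.06 in WT). Chrng and Ncam1 are the genes that fell, Chrne, the adult receptor subunit, stayed at 0.11 (-0.35 as deposited), and Ankrd1, a stress-responsive titin-associated repeat protein, had KO percentiles of 56.7, 68.0 and 58.8 at P9 and 79.4, 79.4 and 81.4 at P17. Ankrd1 rose by 0.56 (SE 0.08) per length and did not pass as deposited (0.33), a call also lost without P9 KO replicate 1 (0.50).

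Glucocorticoid-responsive genes rose in 8 of 9 cases in KO quadriceps, against 4.14% of all genes, and in 8 as deposited, against 6.58%. Without a filter 7 of the 9 rose, against 683 of 20419 genes. The median change was 0.90 (0.67 as deposited) against 0.02 over all genes tested. In WT 1 of the 9 rose, against 2.97% of all genes, with a median of 0.43. Between the courses 2 of the 9 were higher in KO, Cebpd and Mt2, against 0.653% of all genes, and both calls were lost with mouse name letters as a block. Fkbp5, a chaperone of the receptor, had KO percentiles of 51.0, 55.2 and 50.2 at P9 and 71.4, 87.5 and 87.6 at P17 and WT percentiles of 50.5, 52.1 and 50.5 at P9 and 49.9, 66.2 and 60.4 at P17. It rose by 0.90 (SE 0.15) in KO (adjusted p 0.00187), stayed in WT at 0.20, and its difference of 0.70 had an adjusted p of 0.0607. Cebpd, a transcription factor of acute stress, had KO percentiles of 51.8, 50.9 and 52.7 at P9 and 81.8, 89.7 and 87.6 at P17 and rose by 1.06 (SE 0.09). Its difference of 0.62 (adjusted p 0.0286) was lost in 8 of 12 fits without 1 library, with values of 0.54 to 0.63. Per1, a clock gene with a glucocorticoid-driven promoter, rose by 1.05 beside 0.92 in WT. Klf9 rose by 0.57, lost without P17 KO replicate 3 (0.46) and with the longest transcript as length (0.45), and Tsc22d3 by 0.51, lost without P17 KO replicate 2 (0.48), P17 KO replicate 3 (0.49) or P9 KO replicate 2 (0.49). Zbtb16 had KO percentiles of 66.3, 72.8 and 62.3 at P9 and 76.4, 85.3 and 95.5 at P17, with P17 KO replicate 3 the highest. It rose by 0.71 (SE 0.23), a call lost without P17 KO replicate 2 (0.76), P17 KO replicate 3 (0.44), P9 KO replicate 1 (0.70) or P9 KO replicate 3 (0.64), and with the longest transcript as length (0.58). The kinase gene Sgk1 did not pass at 0.44 but rose as deposited (0.61) and with that length (0.52).

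**Figure D3:**
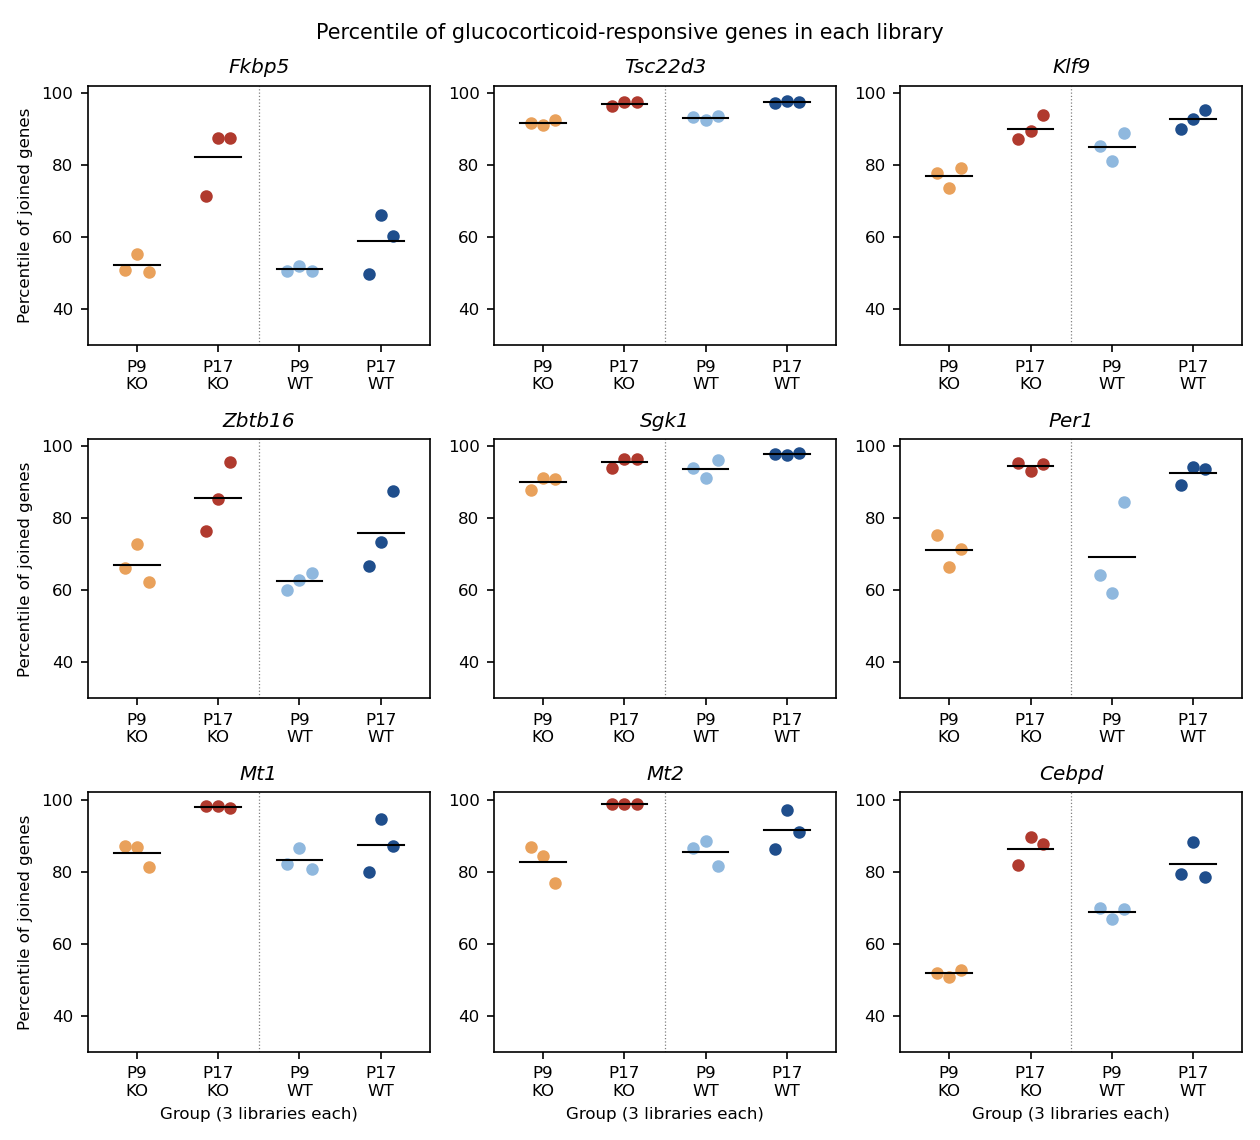
Percentile of each of the 9 glucocorticoid-responsive genes (vertical axis, drawn from 30) in the 3 libraries of each group, with bars at the group mean. All 3 P17 KO values lie above all 3 P9 KO values for every gene, with Mt2 at 98.9, 98.9 and 98.7 in P17 KO and 86.8, 84.4 and 77.0 in P9 KO.

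The metallothionein genes Mt1 and Mt2, which bind zinc and copper, are the other list members that rose, and their promoters are shown because neighbouring genes of 1 family rose together. They are RefSeq promoters of GRCm38.p6, from 250 bases before to 50 after the start: Mt1 at chr8:94178839-94179138 (+) and Mt2 at chr8:94172368-94172667 (+). Capitals mark the metal response element core, TGCGCNC or TGCACNC with N any base, on either strand, overlaps allowed.
Mt1: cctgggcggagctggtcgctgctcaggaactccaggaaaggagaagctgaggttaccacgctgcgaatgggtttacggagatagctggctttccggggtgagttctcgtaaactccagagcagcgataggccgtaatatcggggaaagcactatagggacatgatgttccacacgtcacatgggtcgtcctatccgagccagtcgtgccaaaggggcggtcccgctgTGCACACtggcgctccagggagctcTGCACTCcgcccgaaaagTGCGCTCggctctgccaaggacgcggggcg
Mt2: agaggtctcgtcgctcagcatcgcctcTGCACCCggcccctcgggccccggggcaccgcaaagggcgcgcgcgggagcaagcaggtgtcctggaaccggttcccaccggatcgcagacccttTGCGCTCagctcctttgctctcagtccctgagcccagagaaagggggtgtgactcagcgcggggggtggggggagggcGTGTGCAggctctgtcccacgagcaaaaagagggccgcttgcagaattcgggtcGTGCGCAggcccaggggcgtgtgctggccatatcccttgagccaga

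Mt1 has 3 such matches and Mt2 has 4, among 7 list members in the promoter table of which these 2 have any, while 25.7% of the 32851 promoters hold one. Mt2 had KO percentiles of 86.8, 84.4 and 77.0 at P9 and 98.9, 98.9 and 98.7 at P17 and WT percentiles of 86.6, 88.4 and 81.5 at P9 and 86.2, 97.2 and 91.1 at P17. It rose by 1.31 (SE 0.09) per length (limma adjusted p 4.11e-05) and did not pass as deposited (0.49). Its difference from WT was 0.93 (limma adjusted p 0.0427), lost in 10 of 12 fits without 1 library, with values of 0.75 to 1.01, and with mouse name letters as a block. Mt1 had KO percentiles of 87.2, 86.8 and 81.2 at P9 and 98.2, 98.1 and 97.8 at P17 and rose by 1.01 (SE 0.07). P17 KO libraries were the highest of all groups in Mt2, with P17 WT replicate 2 the nearest.

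Atrophy and autophagy genes rose in 5 of 10 cases, against 4.14% of all genes, and 4 stayed, with a median of 0.41 (0.48 as deposited, 0.25 in WT). As deposited 4 rose, against 6.58% of all genes. None differed between courses by the test, against 0.653% of all genes higher in KO and 0.539% lower. Fbxo32, a ubiquitin ligase of wasting muscle, had KO percentiles of 83.1, 76.3 and 84.4 at P9 and 96.4, 96.7 and 96.9 at P17 and rose by 0.94 (SE 0.08), beside 0.56 in WT. The ligase gene Trim63 rose by 0.56 and the autophagosome gene Gabarapl1 by 0.70, neither of which passed as deposited (0.47 and 0.45), and the mitophagy receptor gene Bnip3 rose by 0.59. Foxo1, a transcription factor upstream of both ligases, had KO percentiles of 60.5, 58.9 and 57.8 at P9 and 70.2, 90.1 and 90.5 at P17, so replicate 1 was the lowest at P17 but above all of P9. Foxo1 rose by 0.81 (SE 0.19), while its paralogue Foxo3 had a change of -0.43 that did not pass.

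In the integrated stress response list 2 of all 18 genes rose without a filter, 1 fell and 12 stayed. In the same fit 683 of 20419 genes rose and 4.63% fell. The list median was 0.11 per length and 0.03 in WT. With the filter 16 were tested (median 0.11, turning to -0.04 as deposited, where 1 rose and 1 fell), and Chac1 passed it through P17 alone. Ddit4, an inhibitor of mTOR, had KO percentiles of 70.8, 75.6 and 71.5 at P9 and 97.9, 98.2 and 98.1 at P17 and rose by 1.47 (SE 0.05), beside 1.10 in WT. Chac1, a glutathione-degrading enzyme, rose by 0.76 and did not pass as deposited (0.44). Pycr1, of proline synthesis, fell by 0.59, and the regulator Atf4 stayed at 0.30. Of 13 p53 target genes 3 rose, against 4.14% of all genes, and 9 stayed (median 0.14, 0.17 as deposited, 0.07 in WT). As deposited 3 rose and 1 fell, against 6.58% and 7.46% of all genes. Cdkn1a, the cell cycle inhibitor p21, had KO percentiles of 93.5, 93.4 and 91.5 at P9 and 97.0, 98.5 and 98.5 at P17 and rose by 0.61 (SE 0.08), against -0.01 in WT. Its difference was 0.62 (limma adjusted p 0.0197), lost without P17 KO replicate 2 (0.57) and with mouse name letters as a block. The antiproliferative gene Btg2 rose by 0.96, and Trp53inp1 by 0.51, lost without P17 KO replicate 3 (0.47) and with the longest transcript as length (0.45). In the circadian list 2 of 14 rose, Per1 and Per2 (0.69, and 0.58 in WT), and 11 stayed (median 0.10, 0.25 as deposited, where 3 rose, 0.14 in WT), against 4.14% of all genes that rose.

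Nuclear envelope genes, the neighbours of the missing protein, stayed in 14 of 19 cases, against 81.4% of all genes. Of the 19, 1 rose and 3 fell, against 4.14% and 5.34% of all genes. The median was -0.01 per length, turning to 0.11 as deposited, and 0.02 in WT. The lamin gene Lmna stayed at -0.17 (0.10 as deposited). Lmnb2, a B-type lamin, had KO percentiles of 81.1, 77.5 and 81.5 at P9 and 55.7, 58.2 and 58.8 at P17 and WT percentiles of 81.0, 79.9 and 79.4 at P9 and 78.8, 74.9 and 73.9 at P17. Lmnb2 fell by 0.65 (SE 0.05) in KO and stayed in WT (-0.14). Its difference of -0.51 (adjusted p 0.00220) was called per length, was -0.49 and not called as deposited, -0.49 and not called with the longest transcript as length, and was lost without P17 KO replicate 1 (-0.49), P17 WT replicate 1 (-0.47), P9 KO replicate 1 (-0.49) or P9 KO replicate 3 (-0.49). Sun2, which spans the inner membrane in the LINC complex, had KO percentiles of 83.1, 80.2 and 84.9 at P9 and 95.7, 94.4 and 95 at P17 and rose by 0.70, beside 0.57 in WT. Syne1, its giant partner nesprin, fell by 0.79 per length and was at 0.27 as deposited, the opposite direction, and fell in WT by 0.73. Tmpo, a lamin-binding protein, fell by 0.51, stayed as deposited (-0.06), and lost the call without P9 KO replicate 1 (-0.48) and with the longest transcript as length (-0.23). Of 77 ribosomal protein genes 17 fell and 54 stayed per length (median -0.28), against 5.34% of all genes that fell, while 47 fell as deposited (median -0.57), against 7.46%, and 24 fell in WT (median -0.34), against 4.46%. Of the 17 that fell per length 2 passed the filter through P9 alone. None of the 77 differed between the courses, against 0.653% of all genes higher in KO and 0.539% lower.

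Adipocyte markers rose in 4 of 7 cases tested per length (median 0.58) and in none as deposited (median 0.04), against 4.14% and 6.58% of all genes, and 1 of 7 rose in WT (median 0.12), against 2.97%. The 8 joined markers summed to 628, 657 and 590 FPKM in P9 KO and 931, 1161 and 855 CPM in P17 KO, against 307, 354 and 313 FPKM in P9 WT and 320, 307 and 254 CPM in P17 WT. Fabp4 was the most abundant in every library and stayed at -0.38, and 1 marker was at 0 in P9 KO replicate 2. Cfd, the fat cell protease adipsin, had KO percentiles of 95.1, 84.0 and 89.4 at P9 and 99.0, 99.1 and 98.0 at P17 and rose by 0.93 (SE 0.16). Cidec, a lipid droplet protein, had KO percentiles of 60.1, 52.7 and 54.0 at P9 and 88.5, 89.8 and 76.9 at P17 and rose by 0.93 (SE 0.14). Its difference from WT of 0.69 (adjusted p 0.0272) was called per length and not as deposited (0.43), and was lost in 9 of 12 fits without 1 library (0.59 to 0.71). The adipokine gene Retn rose by 0.71 and Adipoq by 0.58, the latter lost without P17 KO replicate 2 (0.49) or P9 KO replicate 2 (0.48), lost with the longest transcript as length (0.46) and at -0.03 as deposited, the opposite direction. The part of fat cells in other results was not tested.

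All 10 endothelial markers stayed, against 81.4% of all genes. Their median was -0.06, turning to 0.21 as deposited, where 2 rose against 6.58% of all genes, and 0.02 in WT. Their sums were 393, 439 and 450 FPKM in P9 KO and 967, 1143 and 1314 CPM in P17 KO, led by Egfl7 and Cdh5. In WT the sums were 289, 309 and 332 FPKM and 891, 876 and 954 CPM. Of 8 macrophage markers tested 7 stayed, against 81.4% of all genes (median -0.09, 0.01 in WT). As deposited the median was -0.37 and 4 of 9 fell, against 7.46% of all genes. Their sums were 80.5, 101 and 118 FPKM and 65.0, 97.7 and 89.8 CPM in KO, led by Lyz2, C1qb or Csf1r, and 100, 120 and 107 FPKM and 146, 104 and 107 CPM in WT. No marker of these 2 lists was at 0 in a KO library. Of 6 smooth muscle and pericyte markers 4 stayed, against 81.4% of all genes (median 0.05, turning to -0.17 as deposited, 0.12 in WT). Their sums in KO were 404, 423 and 370 FPKM and 437, 491 and 587 CPM, led by Acta2, against 472, 467 and 475 FPKM and 876, 794 and 762 CPM in WT. Rgs5, a pericyte gene, had KO percentiles of 97.5, 97.9 and 98.0 at P9 and 75.7, 79.9 and 92.8 at P17 and fell by 1.02 in KO and 0.71 in WT, without a difference by the test. The 4 hemoglobin genes Hba-a1, Hba-a2, Hbb-bs and Hbb-bt were near the top of the ranking in each P9 KO library and listed at 0 in all 6 libraries of P17, WT included, although Alas2, the heme synthesis enzyme of red cells, stayed at -0.06 with KO percentiles of 72.9, 84.9 and 81.0 at P9 and 77.4, 81.5 and 75.7 at P17. These genes also have near-identical copies, and why they are listed at 0 was not tested. Erythroid sums were 2794, 5891 and 4608 FPKM in P9 KO and 16.3, 23.3 and 16.6 CPM in P17 KO, where Alas2 led and 4 of 8 markers were at 0, against 1 at 0 in P9 KO replicate 2. The 4 genes passed the filter through P9 alone, so no test call and no median is given for this list.

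The largest KO changes that the naming rule takes were all called in WT in the same direction, though not at the same size. Ranked by score change among protein-coding genes called on both scales and above 0 in at least 1 library of each age, the 8 that rose most were Fth1 (4.03), Nnt (2.11), Zfp865 (2.0), Zc3h11a (1.93), Clec3a (1.84), Mrpl53 (1.64), Pagr1a (1.63) and Igflr1 (1.58), with WT changes of 3.50, 1.41, 1.70, 2.08, 0.63, 1.53, 1.40 and 1.67. Those that fell most were Eno1 (-3.18), Oaz1 (-3.11), Atp5l (-2.75), Prnd (-2.48), Mia2 (-2.30), Rmnd1 (-2.22), Ubald2 (-2.15) and Zbed5 (-2.14), with WT changes of -3.13, -2.96, -2.71, -2.18, -2.42, -1.79, -2.18 and -2.20. Of the 16, 12 passed the filter through 1 age only, and only Nnt differed between the courses by the test. Nnt, a mitochondrial enzyme that makes NADPH and whose sequence differs between substrains of C57BL mice, had KO percentiles of 50.8, 58.4 and 54.3 at P9 and 98.9, 98.5 and 98.6 at P17 and a difference from WT of 0.70 (adjusted p 0.00100). Fth1, the ferritin heavy chain, was listed at 0 in 4 of the 6 P9 libraries and stood at positions 35, 40 and 38 in P17 KO. Eno1, the ubiquitous enolase, went the other way, from positions 201, 304 and 266 in P9 KO to 0 in 3 of the 6 P17 libraries. Both genes, like Oaz1 and Atp5l, have near copies or processed pseudogenes in the mouse genome, so their levels in either table are uncertain. Of all genes called in KO, 2 that rose and 34 that fell were at 0 in all 6 libraries of an age, and 246 of the 507 that rose and 400 of the 654 that fell were called in the same direction as deposited.

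Where the KO course parted from the WT course, 54 of the 80 genes with a higher change had risen in KO and 30 of the 66 with a lower change had fallen. Over all genes tested in KO 4.14% rose and 5.34% fell. Both calls use the same KO change, so this overlap is largely built in and is not a separate result. The 8 of each direction that the naming rule takes follow. Bdh1, the mitochondrial dehydrogenase of ketone bodies, had KO percentiles of 42.8, 49.9 and 47.3 at P9 and 88.2, 94.6 and 93.9 at P17 and WT percentiles of 30.8, 37.8 and 30.8 at P9 and 37.4, 38.9 and 39.9 at P17. P17 KO lay above the other 3 groups, of which the WT groups overlapped, and the difference was 1.38 (SE 0.14) with a limma adjusted p of 4.55e-04. All WT values of Bdh1 lay under percentile 40, the threshold of the filter. The gene passed that filter through the P17 KO libraries, which favours a call. Lrrc52, an auxiliary subunit of potassium channels, had KO percentiles of 62.4, 66.0 and 69.3 at P9 and 92.9, 96.9 and 96.5 at P17 and a difference of 1.10 (SE 0.14, adjusted p 0.00173). The inducible heat shock genes Hspa1a and Hspa1b are near-identical copies, so reads may be assigned to either and each value is uncertain. Their promoters are shown because both rose and differed from WT. They are RefSeq promoters of GRCm38.p6, 250 bases before to 50 after the start: Hspa1a at chr17:34972107-34972406 (-) and Hspa1b at chr17:34959189-34959488 (-). Capitals mark GAANNTTC, a pair of facing units of the heat shock element with N any base, which reads the same on both strands.
Hspa1a: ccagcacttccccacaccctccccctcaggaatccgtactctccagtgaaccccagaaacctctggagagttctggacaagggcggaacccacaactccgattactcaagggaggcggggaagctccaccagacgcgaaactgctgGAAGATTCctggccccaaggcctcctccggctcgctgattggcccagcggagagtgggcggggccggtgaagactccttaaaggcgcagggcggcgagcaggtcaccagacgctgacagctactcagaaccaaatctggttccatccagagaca
Hspa1b: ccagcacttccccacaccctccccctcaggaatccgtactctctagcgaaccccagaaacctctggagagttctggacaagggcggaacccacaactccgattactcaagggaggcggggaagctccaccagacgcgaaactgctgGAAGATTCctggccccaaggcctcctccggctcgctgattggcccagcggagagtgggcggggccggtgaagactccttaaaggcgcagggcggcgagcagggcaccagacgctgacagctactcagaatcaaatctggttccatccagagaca

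Each holds 1 match, the pair differ in 4 of 300 bases, and 7.86% of the 32851 promoters hold one. Hspa1a had KO percentiles of 59.0, 65.7 and 68.3 at P9 and 89.8, 90.6 and 90.1 at P17 and WT percentiles of 54.7, 59.4 and 80.1 at P9 and 61.5, 66.6 and 63.6 at P17, with P9 WT replicate 3 above the other P9 WT libraries. It rose by 0.92 (SE 0.06) in KO and differed from WT by 0.96 (adjusted p 0.0189). Hspa1b rose by 0.79 (SE 0.07) and differed by 0.99 (adjusted p 0.0307), a call lost in 7 of 12 fits without 1 library (0.92 to 1.03). Ifi27l2a, an interferon-induced gene, rose by 0.89 per length, was at -0.09 as deposited, the opposite direction, and differed from WT by 0.97 and 0.57 on these scales. Mapk1ip1 rose by 1.41 with a difference of 0.95, and Aifm2, a suppressor of lipid peroxidation at membranes, rose by 0.91 with a difference of 0.87. Mt2 completes the 8.

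Among the genes with the lowest difference, Mybpc2 led and Mylk4, a kinase of the myosin light chain kinase family, was next, with KO percentiles of 92.5, 90.0 and 92.0 at P9 and 65.2, 78.6 and 78.4 at P17 and a difference of -1.01 (SE 0.16, adjusted p 0.00444). Mylk4 fell in KO by 0.72, though not as deposited (-0.44). Apln, the peptide ligand apelin, had KO percentiles of 82.8, 71.7 and 82.9 at P9 and 50.4, 53.4 and 52.0 at P17 and WT means of 81.9 and 86.5, and its difference was -0.97 (SE 0.13). Gamt, the last enzyme of creatine synthesis, had KO percentiles of 97.0, 95.8 and 96.3 at P9 and 75.4, 78.7 and 76.0 at P17 and WT means of 98.0 and 97.5. Every P17 KO value of Apln and Gamt was below every value of the other 3 groups. Prkag3, the AMPK subunit of fast glycolytic fibres, stayed in KO at -0.32 and rose in WT by 0.63, a difference of -0.96 (SE 0.09, adjusted p 3.05e-04). Ppp1r14c, an inhibitor of protein phosphatase, fell by 0.63 in KO, a call lost without P9 KO replicate 1 (-0.49), with a difference of -0.95. The hydrolase gene Cmbl fell by 0.69 with a difference of -0.90, and the actin-bundling gene Fscn1 by 0.77 with -0.88. In these 3 the WT changes were 0.32, 0.21 and 0.11.

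Among the lists other than cell markers, per length, the largest shares of called members were those of glucocorticoid-responsive genes (8 of 9 rose), genes of developing muscle (6 of 8 fell), imprinted and growth genes (7 of 12 fell) and matrix genes (9 of 16 fell, 2 of 16 as deposited), against 4.14% and 5.34% of all genes that rose and fell. As deposited the fall of ribosomal protein genes (47 of 77) stood against 7.46% of all genes, a share not matched for gene length. Per length 17 of the 77 fell in KO and 24 in WT. As deposited the KO change rose with gene length over all genes tested (Pearson r 0.47). The lists share members with each other, such as Per1, Chrng, Ncam1 and Myh8.

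**Figure D4:**
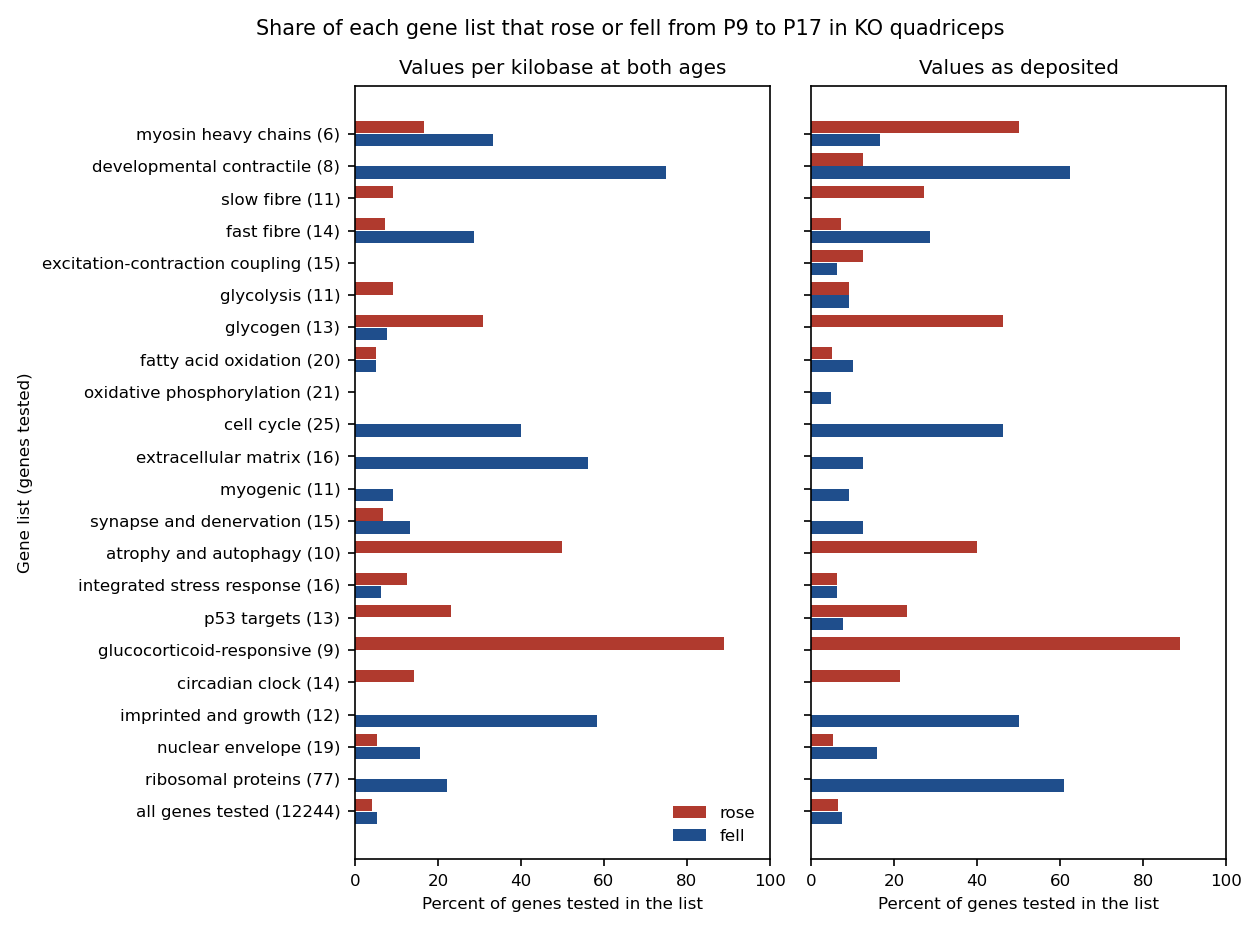
Percent of the tested genes of each list that rose (red) or fell (blue) from P9 to P17 in KO quadriceps (horizontal axis from 0), with P17 values per kilobase (left) and as deposited (right), the genes tested per kilobase in parentheses. In the cell cycle list 7 of 25 passed the filter through P9 alone. Glucocorticoid-responsive genes rose in 8 of 9 cases on both sides, while the fall of the matrix list went from 9 of 16 on the left to 2 of 16 on the right.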

How the data were processed

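PolyA RNA of quadriceps was measured in 12 libraries, 3 per genotype at each age, of which the 6 KO libraries form the course and the 6 WT libraries stand beside it. Per the submitters' processing notes, reads were aligned to GRCm38 with HISAT2 (2.1.0), counted with featureCounts (1.6.2) and compared with DESeq2, and none of the authors' own comparisons was used. The authors deposited the P17 values as CPM, scaled to 1000000 per library, and reads were recovered from the common step of each column. A count of 0 allows up to 3 reads, or 0.0859 to 0.113 CPM. The authors deposited the P9 values as FPKM, scaled for gene length and depth. They hold no reads, so a count test between the ages could not be run, and the program and gene models behind them are not given in the sources used here.

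Identical symbols joined 20431 of 24062 P17 genes and 53733 P9 genes, with 27 P17 symbols turned into dates and 4 rows with a repeated symbol among those left out. P17 values were divided by union exon length in kb (GENCODE vM21), which 12 joined genes lack, so 20419 genes were ranked, 18836 of them protein-coding. Percentiles are 100 times rank minus 0.5, over the number of genes, and scores are normal quantiles of the rank. Genes with a mean percentile of at least 40 were tested with limma (3.58.1, R 4.3.3, eBayes with variance trend, Benjamini-Hochberg), in KO, in WT and for the difference of the changes over all 12 libraries. The smallest exact p of 3 libraries against 3 is 0.1, so single genes are also described by overlap. Fits were tested on simulated data, and no result of that test is used here. Tables were made with Python 3.11.15, pandas 2.3.3 and numpy 2.4.6, figures with matplotlib 3.10.9.

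Genes named by rule are the 10 of highest mean rank in KO at each age and, in each direction, the 8 of largest score change and the 8 of largest difference, among protein-coding genes called on both scales, above 0 in at least 1 library of each age and not overlapping. Other names are members of fixed lists or were chosen after their values were seen, where the text says so. Members and lists were chosen with earlier results of these data known. Lists were described by counts and medians, without a test. The result of 1 marker list is not reported here. Alternatives were ranks as deposited, longest transcript as length, protein-coding genes only, no variance trend, percentile points, other filters, adjusted p alone, log2 values, genes above 0 in each library, mouse name letters as a block, and leaving out each library.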

Additional observations from a re-analysis of the deposited data

Results flagged for a closer look

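Of 180 named genes, 48 had a rank change from P9 to P17 that differed between KO and WT by the test of the difference (limma, adjusted p under 0.05 and a score difference beyond 0.5). The named genes include 16 taken by rule for their difference and others chosen after their values were seen, so this count is set by the choice of genes. Over all 12248 genes tested 80 were higher (0.653%) and 66 lower (0.539%). Groups of 3 libraries are too small for a test of single libraries that stand apart, and no such test was made. The change was higher in KO for 26 genes: Mir133b (1.86), Bdh1 (1.38), Mir206 (1.36), Prr32 (1.21), Lrrc52 (1.10), Csrp3 (1.07), Mettl21c (1.04), Sln (1.02) and Hspa1b (0.99), followed by Ifi27l2a (0.97), Hspa1a (0.96), Mapk1ip1 (0.95), Mt2 (0.93), Aifm2 (0.87), Tnnt1 (0.77), Myh8 (0.77), Ankrd2 (0.74) and Nnt (0.70), and by Myh2 (0.69), Cidec (0.69), Myoz2 (0.68), Nqo1 (0.67), Cebpd (0.62), Cdkn1a (0.62), Hspb7 (0.54) and Ppara (0.51). It was lower in KO for 22 genes: Mybpc2 (-1.42), Mylk4 (-1.01), Apln (-0.97), Gamt (-0.97), Prkag3 (-0.96), Ppp1r14c (-0.95), Cmbl (-0.90), Tmem8c (-0.89) and Fscn1 (-0.88), followed by Mybph (-0.84), Actc1 (-0.80), Aplnr (-0.78), Myh4 (-0.74), Cdkn1c (-0.73), Igfbp5 (-0.69), Phkg1 (-0.65), Gpd1 (-0.64) and Gpd2 (-0.63), and by Gpt2 (-0.62), Mest (-0.61), Tnmd (-0.60) and Lmnb2 (-0.51).

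The pairs of copies Hspa1a and Hspa1b moved together, and Mir133b and Mir206 lie side by side on chromosome 1 and are short genes whose levels in polyA libraries are uncertain. Both had mean KO percentiles under 40 at P9 and passed the filter through P17, which favours a call, so their differences support nothing by themselves. Bdh1, with all WT percentiles under 40, also passed the filter of the difference through P17 KO. The KO course of Sln, Mettl21c and Prr32 stayed (-0.17, -0.03 and -0.06) (Prr32 fell as deposited, -0.62) while the WT course fell (-1.19, -1.08 and -1.27). For Gpd1, Gpd2, Gpt2 and Prkag3 the KO course also stayed (-0.13, -0.07, 0.01 and -0.32) while the WT course rose (0.51, 0.56, 0.63 and 0.63). What these differences come from was not tested.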

How the results depend on the processing

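No paired analysis was possible because the KO mice of the ages are different animals and no mouse name opens with the same letters at both ages. Within an age some KO and WT names share these letters, whose meaning no label gives. With them as a block, an alternative chosen after seeing the data, 68 differences were higher and 67 lower. Of 48 named differences 38 were called or not as before, none turned, and 10 lost the call, Cdkn1a (0.55), Cebpd (0.59), Csrp3 (1.02), Gpd1 (-0.68), Mir206 (1.32), Mt2 (0.96), Myh4 (-0.75), Ppara (0.44), Tnmd (-0.62) and Tnnt1 (0.77). Ranks as deposited gave 808 genes that rose and turned the direction of 3 called genes, Adipoq (-0.0268), Ifi27l2a (-0.0937) and Syne1 (0.27). Of 180 named genes 143 were called or not called as before, 23 lost a call, 10 gained one and 1 was not tested. List medians moved by more than the spread of replicates in 23 of 30 lists under this alternative and in 9 with the longest transcript. The alternative differs only in leaving length undivided. With the longest transcript as length 168 genes were called or not as before, with protein-coding genes only 175 and without a variance trend 180. Genes that were not called could change sign. A threshold of 10 percentile points gave 1185 that rose, 1334 that fell, 137 higher in KO than in WT and 188 lower, and adjusted p alone gave 4026, 3643, 349 and 478. Log2 values, which keep the difference of units, gave 1568, 1331, 179 and 229 with 0.5 added and 1295, 1051, 162 and 158 with 1 added. Genes that stayed numbered 15208 without a filter, 6426 from percentile 60 and 5326 among genes above 0 in each library, where 120 were lower in KO than in WT, and the number of genes tested differs in these 3. The alternative of genes above 0 was also chosen after seeing the data. The causes of the other shifts were not tested. Of the genes called in KO, 43.67% rose, against 52.5% with adjusted p alone and 54.09% and 55.2% on the log2 scales. Of the differences called, 54.79% were higher (80 against 66 lower), against 48.65% with ranks as deposited (90 against 95), 47.37% without a filter (81 against 90), 42.15% with percentile points, 42.2% with adjusted p alone, 43.87% with 0.5 added to log2 values and 42.03% among genes above 0 in each library. Leaving out 1 library in turn gave 484 to 552 genes that rose, 611 to 690 that fell, 9735 to 9872 that stayed, 64 to 91 higher in KO and 58 to 86 lower. Of 1080 such values of named genes 27 lost a call, 12 gained one and none of those called turned, and of 572 differences 80 lost the call and none turned. Groups hold 3 mice, age and table cannot be told apart, and reads are known for P17 only, so the precision of low P9 values is unknown.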

Other observations

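The genes named here belong to no fixed list or rule and were chosen after their values were seen. Ankrd2, a titin-binding repeat protein of stretched muscle, had KO positions of 583, 170 and 288 at P9 and 22, 19 and 21 at P17, rose by 0.92 and differed from WT by 0.74 (adjusted p 0.0164). Hspb7, a small heat shock protein of muscle, had KO positions of 313, 169 and 221 at P9 and 31, 27 and 29 at P17 and rose by 0.70, with a difference of 0.54 lost without P9 KO replicate 1 (0.48) or P9 WT replicate 3 (0.44). Csrp3, the muscle LIM protein, did not pass in KO (0.38) and fell in WT by 0.69, with a difference of 1.07 lost in 4 of 12 fits without 1 library (1.01 to 1.07). Ppara, a receptor that drives fatty acid oxidation, rose in KO by 1.42 and in WT by 0.91, with a difference of 0.51 lost in 5 of 12 such fits (0.41 to 0.50) and at 0.49 with the longest transcript as length. Nqo1, an antioxidant reductase, rose in KO by 1.20 and in WT by 0.53, with a difference of 0.67. The glycerol phosphate dehydrogenases Gpd1 and Gpd2 and the transaminase Gpt2 stayed in KO at -0.13, -0.07 and 0.01, and the Gpd1 difference of -0.64 was lost in 8 of 12 fits without 1 library (-0.67 to -0.55). Mybph, a fast myosin-binding protein, had KO percentiles of 90.4, 81.1 and 78.0 at P9 and 78.9, 75.3 and 70.2 at P17, did not pass at -0.31 and fell to -0.61 as deposited. Aplnr, the receptor of apelin, fell in KO by 0.77 and stayed in WT at 0.01. Mir133b and Mir206, muscle microRNA genes, had KO percentiles of 32.8, 32.8 and 32.5 at P9 and 95, 97.7 and 98.0 at P17 and of 26.2, 33.0 and 36.5 at P9 and 60.8, 72.4 and 73.6 at P17. Both passed the filter through P17 alone, so no change is given here.

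Sex-linked genes were read as values. The methods of the study describe mice of both sexes in each genotype, while every library here holds Xist and hardly any Y-linked RNA, and the reason was not tested. Xist lay between 28.6 and 37.2 FPKM at P9 and between 144 and 314 CPM at P17 in all 12 libraries. Among Y-linked genes the highest values were 0.00303 FPKM for Kdm5d and 0.00580 FPKM for Uty at P9, and 0.0334 CPM for Ddx3y and 0.0318 CPM for Eif2s3y at P17. Pearson correlations of the scores were taken over the genes tested in KO. Within groups they ran from 0.979 to 0.991, and between KO libraries of different ages from 0.839 to 0.853 over 9 pairs.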
